A study of Mus musculus with 12 samples.

Results

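The genes described here are 34 genes of the ATF4 response and of serine and one-carbon metabolism in mouse lung adenocarcinoma cells. They come from a list of symbols that was drawn up with earlier results of these data known, and were kept where 10 or more counts were found in at least 3 libraries. All 34 of 34 listed genes met this rule, as did 13312 of the 24421 symbols in the table, and all 34 were among the 13281 genes tested. The cells, whose labelled genotype is the same in every library and includes Trp53flox/flox, carried either a control guide RNA (sgCTRL, the control cells below) or a CRISPR/Cas9 guide RNA against Bach1 (sgBACH1, the knockout cells). Each was treated for 48 hours with a control (siCTRL) or a Fem1b-targeting siRNA (siFEM1B), which gave 4 groups of 3 libraries, described in the design text as biological replicates. A single control line and a single knockout line are named, so that Bach1 loss cannot be told apart from other differences between these lines. The study asked how the heme-binding repressor BACH1 and FEM1B, which selects substrates for a CUL2 ubiquitin ligase, affect genes of ferroptosis, an iron-dependent cell death.

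Total counts per library ranged from 16539168 to 22196999, and 1 count was worth 0.0446 to 0.0604 CPM, the unit of level used below (counts as a share of the library total after TMM scaling). Fem1b was at 157, 167 and 164 CPM in replicates 1 to 3 of control cells with siCTRL and at 43.0, 58.0 and 54.2 CPM with siFEM1B. In knockout cells it was at 140.5, 136 and 141 CPM with siCTRL and 46.2, 54.5 and 46.4 CPM with siFEM1B, so that transcript remained in every siFEM1B library. Bach1 counts do not check the knockout, since a guide RNA lesion need not lower the transcript. They were 31.4 ± 2.04 CPM in the control line and 29.5 ± 1.72 CPM in the knockout line under siCTRL (mean ± SD, n = 3). With siFEM1B they were higher, at 41.4 ± 3.25 CPM in the control line and 39.9 ± 0.601 CPM in the knockout line. The epithelial keratins Krt8, Krt18, Krt7 and Krt19 were abundant, the 7 epithelial markers summing to between 7082 and 9382 CPM, while Epcam was near 0. Markers of the alveolar lineage were at or near 0, with Nkx2-1 and Sftpa1 at 0 in every library and a sum of at most 0.439 CPM. Of 7 leukocyte markers, 1 passed the filter on low counts, Cd68. The sum over the leukocyte markers went from between 7.50 and 9.70 CPM to between 21.4 and 30.3 CPM with siFEM1B in control cells, and from between 5.29 and 6.10 to between 8.57 and 11.1 CPM in knockout cells. The part of this difference in the results below was not tested. The pan-leukocyte marker Ptprc was at a mean of at most 0.243 CPM in any group, and Cd3e and Adgre1 were at 0.

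ATF4 is the transcription factor at the end of the integrated stress response: when eIF2 is phosphorylated, general translation falls while translation of Atf4 mRNA rises, and ATF4 then induces genes that make and import amino acids. Because this control is translational, the level of Atf4 mRNA is not a measure of ATF4 protein. PHGDH, PSAT1 and PSPH make serine from a glycolytic intermediate, the SHMT enzymes pass its side-chain carbon to folate, and the mitochondrial folate enzymes turn that carbon into formate for purine and thymidylate synthesis. Many ATF4 targets carry a C/EBP-ATF response element, a composite site bound by ATF4 with a C/EBP partner, and BACH1 binds antioxidant-type elements together with small MAF proteins.

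Promoter windows from 250 bases before to 50 bases after the start site (RefSeq, GRCm38.p6) were held for 28 of the 34 genes. Aldh1l2, Eif4ebp1, Slc1a5, Slc38a1, Slc7a3 and Slc7a5 had none. The core of the C/EBP-ATF element was searched as TGATGNAA on both strands, where N is any base. It was found for 7 of the 28 genes (25%), against 270 of 9792 tested genes with a window (2.76%) and 3.97% of all 32851 windows. The matches are shown because they are the letters that this class of target is known for, each as 30 bases, 5′ to 3′ on the strand of the gene, with the match in capitals. Matches that begin with TT carry the element on the opposite strand.
Asns, chr6:7693214-7693243, minus strand: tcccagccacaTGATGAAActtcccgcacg
Trib3, chr2:152344028-152344057, minus strand: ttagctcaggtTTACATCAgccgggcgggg
Nupr1, chr7:126625562-126625591, minus strand: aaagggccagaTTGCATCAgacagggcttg
Slc1a4, chr11:20332699-20332728, minus strand: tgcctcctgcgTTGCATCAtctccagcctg
Pycr1, chr11:120643833-120643862, minus strand: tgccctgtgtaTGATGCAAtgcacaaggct
Pck2, chr14:55540152-55540181, plus strand: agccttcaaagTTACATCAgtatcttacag
Vldlr, chr19:27216809-27216838, plus strand: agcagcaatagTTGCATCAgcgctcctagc
The match began 23 bases before the start in Asns, 110 in Nupr1, 4 in Slc1a4, 103 in Pycr1 and in Pck2 and 200 in Vldlr, and in Trib3 it began 15 bases after the start. A match is a description of the letters and not a shown binding site.

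The core of the antioxidant-type element was searched as TGACNNNGC, where N is any base. It was found on either strand for 9 of the 28 genes (32.1%), against 17.1% of tested genes with a window and 12.4% of all windows. Such a match is not a shown BACH1 site. The 9 genes were Cebpb, Phgdh, Slc6a9, Sesn2, Psph, Slc7a1, Asns, Ppp1r15a and Slc38a2. 2 are shown, Cebpb and Slc38a2, because their lower levels in the knockout line held under both siRNAs and every alternative tried, as described below. These 2 were picked by that outcome and do not stand for the 9. Between the lines, Slc6a9 and Asns were not called under either siRNA, and Phgdh and Psph were called higher with siFEM1B. The part of BACH1 in any of these levels was not tested.
Cebpb, chr2:167688897-167688926, plus strand: gggccccagcgTGACGCAGCccgttgccag
Slc38a2, chr15:96699737-96699766, minus strand: gccccgcccacTGACGCGGCgccccgccgc
The match began 7 bases before the start in Cebpb and 27 before it in Slc38a2. Asns held both motifs.

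With siFEM1B in control cells, 22 of the 34 genes were lower and 3 were higher, where 45.0% of all genes tested were called (22.9% lower and 22.1% higher). A gene was called at an adjusted p under 0.05 in a fit across all genes, and p-values were adjusted over all of them. The median log2 fold change of the 34 genes was −0.41, against 0.00 over all genes tested. The groups did not overlap in any replicate for 24 of the 34 genes (52.1% of all genes). All 3 serine synthesis genes, all 5 folate genes and all 5 other enzymes were called lower, and so were 5 of 8 amino acid transporters. The 8 regulators were split, with 3 lower, 2 higher and 3 not called. In bulk RNA, fewer cells with a transcript and less of it per cell cannot be told apart.

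**Figure D1:**
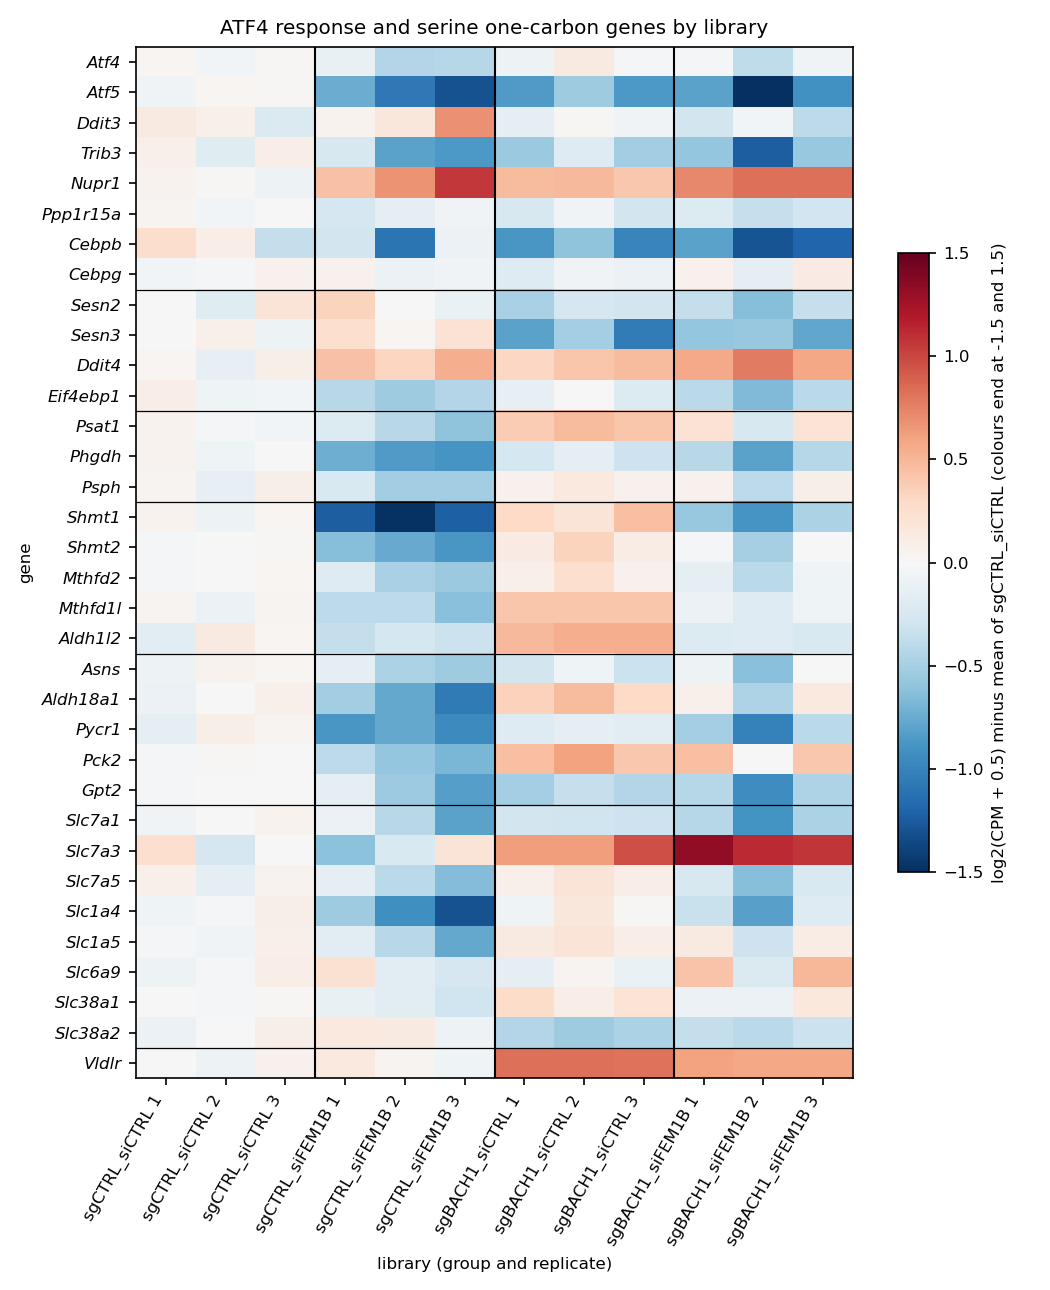
Level of each of the 34 genes (rows, grouped by role) in each of the 12 libraries (columns), as log2(CPM + 0.5) relative to the mean of control cells with siCTRL. The serine, folate and enzyme rows are below that mean in the siFEM1B libraries of control cells, and the libraries of a group differ in how far.

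Phgdh (chromosome 3), which encodes the first and committing enzyme of serine synthesis, was at 298, 276 and 290.2 CPM in control cells with siCTRL and at 172, 159 and 156 CPM with siFEM1B. The groups did not overlap, and the log2 fold change was −0.83 ± 0.08 (± an approximate standard error, adjusted p = 8.9e-08). Psat1, the aminotransferase of the next step, was at 470.2, 448 and 440.0 CPM with siCTRL and 393, 338 and 297 CPM with siFEM1B. It fell by 0.40 ± 0.10 on the log2 scale (adjusted p = 0.00211), and replicate 3 was the lowest siFEM1B library. Psph, the phosphatase that releases serine, went from 77.9, 69.2 and 80.2 to 64.7, 52.3 and 52.5 CPM, with no overlap and a log2 change of −0.42 ± 0.10 (adjusted p = 0.00233). Transcripts of all 3 steps of the pathway were lower, with the largest log2 change in Phgdh.

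Shmt1 encodes the cytosolic serine hydroxymethyltransferase and had the largest fall of the 34 genes. Its level was 26.3, 24.0 and 25.9 CPM with siCTRL and 10.4, 8.78 and 10.6 CPM with siFEM1B, a log2 change of −1.35 ± 0.11 (adjusted p = 1.35e-08). Shmt2, the mitochondrial enzyme, was at 282, 289 and 291 CPM and then 184, 169.5 and 156 CPM, a log2 change of −0.76 ± 0.10 (adjusted p = 3.25e-06). Both had siFEM1B libraries far below every siCTRL library. Mthfd2, the mitochondrial methylenetetrahydrofolate dehydrogenase, went from 209.9, 215 and 218 to 187, 153 and 145 CPM and fell by 0.41 ± 0.09 (adjusted p = 0.000795). Mthfd1l, which makes formate in mitochondria, fell by 0.47 ± 0.06 (adjusted p = 8.08e-06), and Aldh1l2, which oxidizes formyl-tetrahydrofolate there, fell by 0.32 ± 0.07 (adjusted p = 0.000768). No siFEM1B library of these 5 genes reached the lowest siCTRL library.

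Among the other enzymes, the proline synthesis genes fell most. Pycr1, the mitochondrial pyrroline-5-carboxylate reductase, was at 45.4, 53.4 and 51.6 CPM with siCTRL and 27.1, 29.1 and 25.5 CPM with siFEM1B, a log2 change of −0.88 ± 0.11 (adjusted p = 2.66e-06). Aldh18a1, which makes the pyrroline precursor from glutamate, went from 421, 449 and 469 to 311, 263 and 214 CPM, a log2 change of −0.77 ± 0.12 (adjusted p = 3.95e-05). Pck2, the mitochondrial phosphoenolpyruvate carboxykinase, fell by 0.55 ± 0.09 (adjusted p = 7.31e-05) and Gpt2, a mitochondrial alanine aminotransferase, by 0.48 ± 0.12 (adjusted p = 0.00381). Asns, asparagine synthetase, was at 416, 456 and 449 CPM with siCTRL and 397, 317 and 305 CPM with siFEM1B. Its fall of 0.37 ± 0.12 (adjusted p = 0.0137) was no longer called without siFEM1B replicate 2 of control cells (adjusted p = 0.0621), without replicate 3 (0.0775) or by DESeq2 (0.0768). Replicate 1 was the siFEM1B library closest to siCTRL for Asns, Aldh18a1, Pck2 and Gpt2.

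Of the transporters, Slc1a4, which carries serine and alanine, fell most: it was at 109.9, 113 and 123 CPM with siCTRL and 79.4, 60.8 and 46.3 CPM with siFEM1B, a log2 change of −0.88 ± 0.14 (adjusted p = 4.68e-05). The glutamine transporter Slc1a5 fell by 0.42 ± 0.11 (adjusted p = 0.00459) and Slc7a5, the light chain of a transporter of large neutral amino acids, by 0.38 ± 0.11 (adjusted p = 0.00559). The falls of Slc7a1, a cationic amino acid transporter, and Slc38a1, a glutamine transporter, were less secure. Slc7a1 had a log2 change of −0.41 ± 0.12 (adjusted p = 0.0103), and was not called without siFEM1B replicate 3 of control cells (0.0798) or by DESeq2 (0.0633). Slc38a1 had a log2 change of −0.19 ± 0.07 (adjusted p = 0.0403) and lost its call without any 1 of 6 libraries (all 3 of control cells with siCTRL, siFEM1B replicates 2 and 3 of control cells, and siCTRL replicate 3 of knockout cells), with adjusted p up to 0.215. The Slc38a1 call was also lost by DESeq2 (adjusted p = 0.0706), with DESeq2's size factors (0.0682) and with the replicate number as a block (0.0525). Slc7a3, Slc6a9 and Slc38a2 were not called, at −0.42 ± 0.43, −0.05 ± 0.13 and 0.07 ± 0.06 (adjusted p = 0.458, 0.799 and 0.35).

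The regulators did not move as a block. Atf4 itself (chromosome 15) was at 598, 570.5 and 596 CPM with siCTRL and 543, 435 and 437 CPM with siFEM1B, a log2 change of −0.32 ± 0.09 (adjusted p = 0.00562). Atf5, a related factor that is also induced in this response, went from 117, 125 and 124 to 72.6, 57.7 and 49.0 CPM, a log2 change of −1.03 ± 0.14 (adjusted p = 8.03e-06). Trib3, a pseudokinase that is a sensitive ATF4 target, went from 223, 187 and 228 to 179, 121 and 116 CPM and fell by 0.61 ± 0.15 (adjusted p = 0.00298). None of these 3 genes overlapped between the groups, although Atf4 replicate 1 with siFEM1B lay close to the lowest siCTRL library.

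Nupr1, a stress-induced chromatin protein, moved the other way. It was at 143, 139.6 and 130.2 CPM with siCTRL and 187, 219 and 288 CPM with siFEM1B, a rise of 0.75 ± 0.10 on the log2 scale (adjusted p = 4.68e-06). Ddit3, which encodes the stress factor CHOP, was at 67.9, 64.9 and 53.1 CPM with siCTRL and 63.7, 69.3 and 99.0 CPM with siFEM1B. The groups overlapped, replicate 3 being the high library, and the log2 change of 0.32 ± 0.12 (adjusted p = 0.0457) was not called without any 1 of 7 libraries, with adjusted p up to 0.371 without siFEM1B replicate 3 of control cells, nor by DESeq2 (0.111). The 6 other libraries were siCTRL replicates 2 and 3 of control cells, all 3 of knockout cells with siCTRL, and siFEM1B replicate 1 of knockout cells. Cebpb and Cebpg, which encode C/EBP partners, and Ppp1r15a, the phosphatase subunit that reverses eIF2 phosphorylation, were not called, at −0.45 ± 0.18, −0.02 ± 0.07 and −0.15 ± 0.07 (adjusted p = 0.052, 0.814 and 0.0784).

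The 4 regulators of mTORC1 and translation were also split. Ddit4, an mTORC1 inhibitor also induced by hypoxia and glucocorticoids, was at 187, 168 and 194 CPM with siCTRL and 247, 228 and 266 CPM with siFEM1B, a rise of 0.43 ± 0.07 (adjusted p = 4.84e-05). Eif4ebp1, which encodes the cap-binding inhibitor 4E-BP1, went from 360.1, 320.5 and 327 to 251, 231 and 247 CPM and fell by 0.47 ± 0.07 (adjusted p = 1.88e-05). The groups did not overlap for either gene. The sestrins Sesn2 and Sesn3, which restrain mTORC1, were not called, at 0.09 ± 0.12 and 0.17 ± 0.12 (adjusted p = 0.58 and 0.257), nor was the lipoprotein receptor Vldlr, at 0.04 ± 0.05 (adjusted p = 0.555). Of the 25 calls in control cells, 21 held under every alternative tried, and those of Ddit3, Asns, Slc7a1 and Slc38a1 did not.

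**Figure D2:**
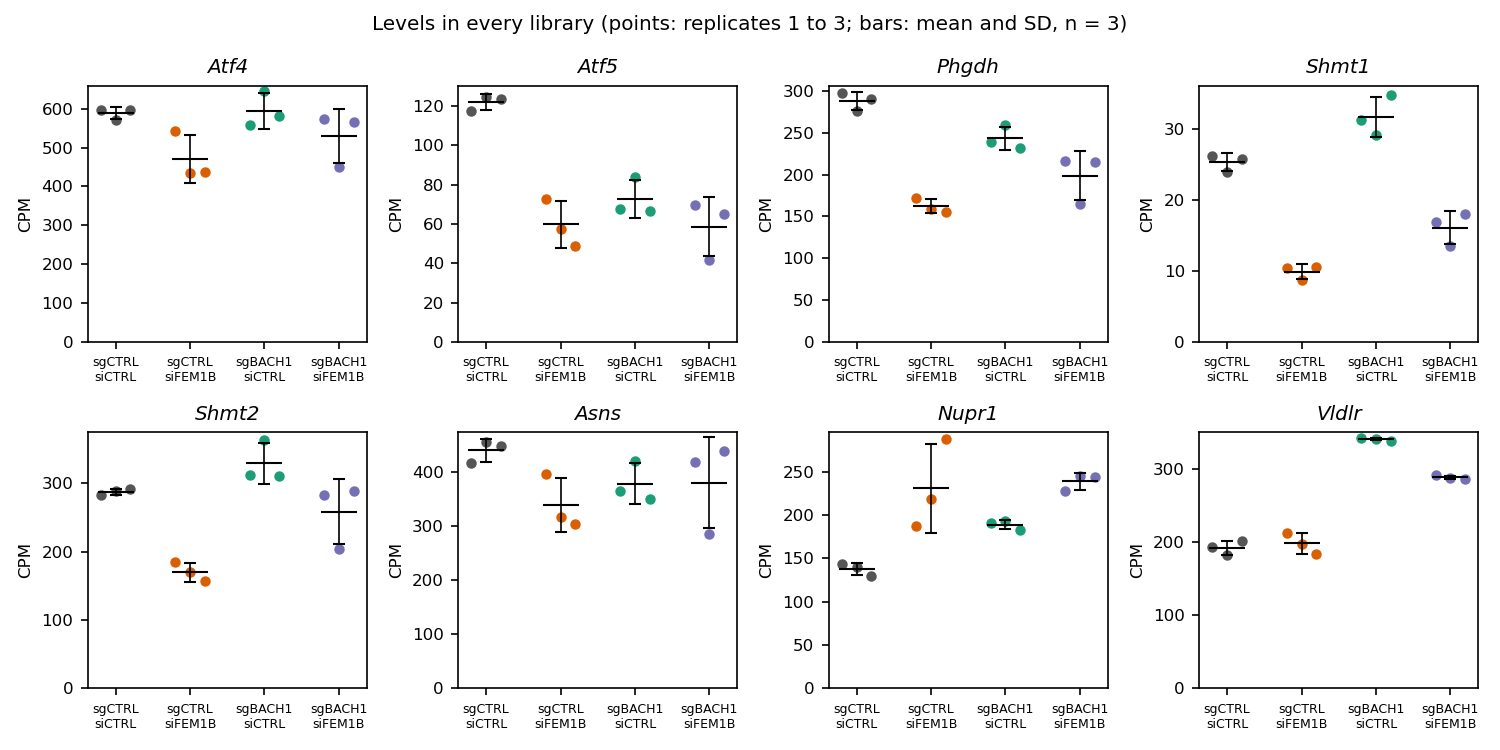
CPM (vertical axes, each starting at 0) of 8 of the genes in every library of the 4 groups, with the mean and SD of each group (n = 3). Phgdh, Shmt1 and Shmt2 are lower with siFEM1B in both cell lines, Nupr1 is higher with siFEM1B, and Vldlr is higher in knockout cells.

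In knockout cells, siFEM1B was followed by fewer calls: 14 of the 34 genes were lower and 2 higher, where 41.7% of all genes tested were called (19.8% lower and 21.9% higher). The median log2 fold change of the 34 genes was −0.22, against 0.02 over all genes tested. The groups did not overlap for 19 of the 34 genes (51.5% of all genes). All 5 folate genes were again lower, with 2 of 3 serine synthesis genes, 2 of 5 other enzymes and 3 of 8 transporters. None of the 8 regulators was called lower, although 6 of them had log2 fold changes below 0.

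Shmt1 was at 31.4, 29.2 and 34.8 CPM in knockout cells with siCTRL and 16.9, 13.5 and 18.0 CPM with siFEM1B, a log2 change of −0.98 ± 0.11 (adjusted p = 5.5e-07), the largest fall of the 34 in this line too. Aldh1l2 came next, from 88.5, 92.0 and 92.6 to 54.6, 55.1 and 53.8 CPM, a log2 change of −0.74 ± 0.07 (adjusted p = 8.16e-08). Mthfd1l went from 150.4, 152 and 151 to 106, 98.9 and 108 CPM and fell by 0.53 ± 0.06 (adjusted p = 2.02e-06). For these 3 genes the replicates of each group lay close together and the groups lay well apart. Shmt2 went from 312, 364 and 311 to 282, 203 and 288 CPM, a log2 change of −0.35 ± 0.10 (adjusted p = 0.00583), with siFEM1B replicate 2 far below the other two. Mthfd2 went from 226, 256 and 224 to 195, 161 and 206 CPM and fell by 0.33 ± 0.09 (adjusted p = 0.0048).

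Phgdh went from 239, 259 and 233 to 217, 165 and 215 CPM in knockout cells, a log2 change of −0.29 ± 0.08 (adjusted p = 0.00521). Psat1 went from 589, 629 and 604 to 526, 383 and 522 CPM, a log2 change of −0.35 ± 0.10 (adjusted p = 0.00633), and Psph was not called at −0.16 ± 0.10 (adjusted p = 0.22). In both called genes siFEM1B replicate 2 was the lowest library and the groups did not overlap. The proline genes fell again, Pycr1 by 0.45 ± 0.11 (adjusted p = 0.00261) and Aldh18a1 by 0.43 ± 0.12 (adjusted p = 0.00676). Pck2, Gpt2 and Asns were not called, at −0.19 ± 0.09, −0.16 ± 0.13 and 0.01 ± 0.12 (adjusted p = 0.0961, 0.321 and 0.969). Asns shows how far replicates could spread: it was at 364, 421 and 351 CPM with siCTRL and 418, 285 and 439 CPM with siFEM1B, so that siFEM1B held both its lowest and its highest knockout library.

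Slc7a5 fell by 0.48 ± 0.11 (adjusted p = 0.00114) and Slc1a4 by 0.47 ± 0.14 (adjusted p = 0.0106) in knockout cells. The Slc1a4 call was lost without siFEM1B replicate 2 of knockout cells (adjusted p = 0.0569) and by DESeq2 (0.0563). Slc38a1, at −0.20 ± 0.07 (adjusted p = 0.0288), lost its call without any 1 of 4 libraries of knockout cells (siCTRL replicates 1 and 3, siFEM1B replicates 1 and 2), with adjusted p up to 0.133. The other 5 transporters, Slc7a1, Slc1a5, Slc7a3, Slc6a9 and Slc38a2, were not called, with log2 fold changes from −0.29 ± 0.12 in Slc7a1 to 0.55 ± 0.31 in Slc7a3.

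Among the regulators in knockout cells, Nupr1 rose from 191, 194 and 183 to 228, 245 and 244 CPM, by 0.34 ± 0.10 (adjusted p = 0.0086). Atf4 was at 557, 647 and 582 CPM with siCTRL and 574, 450.2 and 567 CPM with siFEM1B, and the log2 change of −0.17 ± 0.09 was not called (adjusted p = 0.132). Trib3 was at 143, 186 and 147 CPM and then 141, 89.6 and 143 CPM, a log2 change of −0.35 ± 0.16 that missed the threshold (adjusted p = 0.0775) although the groups just failed to overlap. Ddit3, Ppp1r15a, Cebpb and Cebpg were not called, at −0.17 ± 0.13, −0.09 ± 0.07, −0.26 ± 0.19 and 0.13 ± 0.07 (adjusted p = 0.301, 0.278, 0.279 and 0.128). Ddit4 rose from 226, 243 and 253 to 271, 314 and 274 CPM, by 0.25 ± 0.07 (adjusted p = 0.00686), and Eif4ebp1 fell by 0.37 ± 0.07 (adjusted p = 0.000239). Sesn2 and Sesn3 were at −0.11 ± 0.12 and 0.14 ± 0.13 (adjusted p = 0.512 and 0.416). Of the 16 calls in knockout cells, 14 held under every alternative, and those of Slc1a4 and Slc38a1 did not. Without siFEM1B replicate 2 of knockout cells, 4 genes rather than 2 were called higher.

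The siRNA comparisons in the control and the knockout line share no library. They were of the same sign for 27 of the 34 genes (79.4%), against 74.2% of all genes tested, and the correlation of the log2 fold changes across the 34 genes was 0.678 (Pearson) and 0.661 (Spearman). Genes are not independent replicates, and the same value over all genes was 0.628 (Pearson). 13 genes were called lower in both lines, namely Phgdh, Psat1, the 5 folate genes, Aldh18a1, Pycr1, Eif4ebp1, Slc1a4, Slc38a1 and Slc7a5. Ddit4 and Nupr1 were called higher in both, and no gene was called in opposite directions. Of the 7 genes with the C/EBP-ATF core in their window, 5 were called lower and 1 higher (Nupr1) with siFEM1B in control cells, and 3 lower and 1 higher in knockout cells. Of the 21 genes with a window but without the core, 12 were lower and 2 higher in control cells, and 7 lower and 1 higher in knockout cells.

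**Figure D3:**
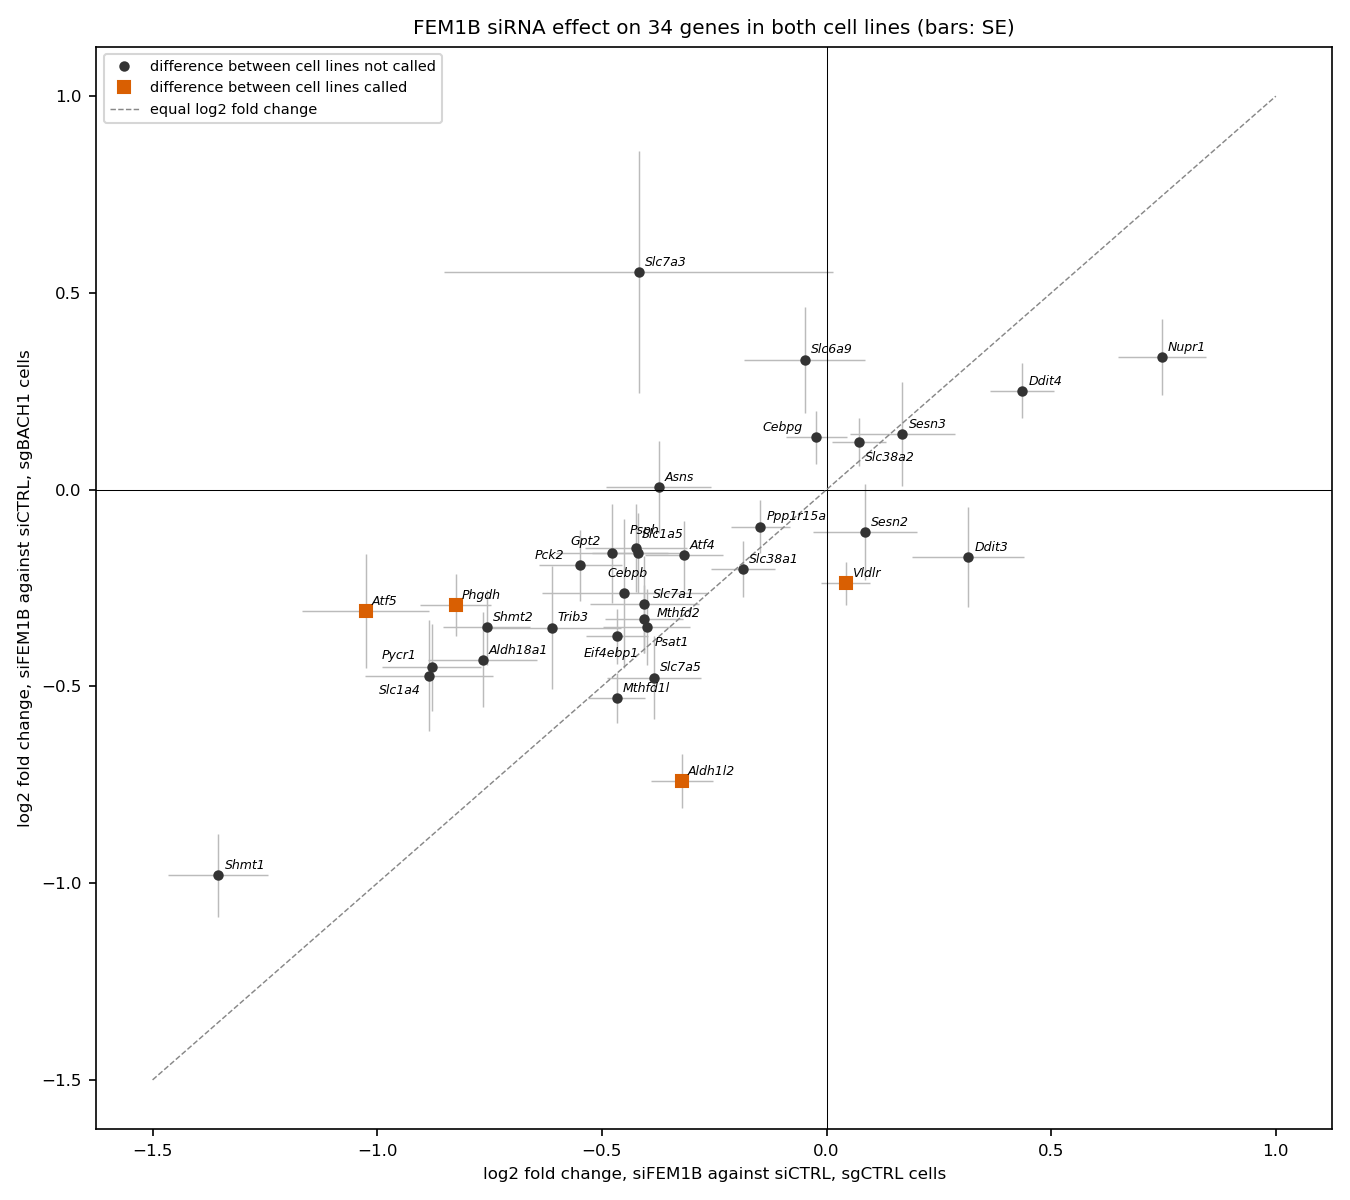
Log2 fold change of siFEM1B against siCTRL in control cells (horizontal) and knockout cells (vertical) for the 34 genes, with standard errors. Most genes lie to the lower left, and the 4 squares, Atf5, Phgdh, Aldh1l2 and Vldlr, are those whose effect was called different between the lines.

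Whether the siRNA effect differed between the lines was tested directly, as the knockout-line effect minus the control-line effect. The test called 4 of the 34 genes, 2 higher and 2 lower, where 6.08% of all genes tested were called (3.48% higher and 2.60% lower). The median difference of the 34 genes was 0.15, against 0.02 over all genes tested. Phgdh had a smaller fall in knockout cells, with a difference of 0.53 ± 0.11 (adjusted p = 0.00915), and this was the call that held under every alternative. Aldh1l2 had a larger fall in knockout cells, with a difference of −0.42 ± 0.10 (adjusted p = 0.0161). It was at 56.2, 69.5 and 64.3 CPM with siCTRL and 49.0, 52.6 and 50.4 CPM with siFEM1B in control cells, so that the lines lay closer together with siFEM1B than with siCTRL. The Aldh1l2 call was lost without siCTRL replicate 3 of knockout cells (adjusted p = 0.0511).

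Atf5 had a smaller fall in knockout cells, and its lines too lay closer together with siFEM1B than with siCTRL. It was at 67.5, 83.9 and 66.7 CPM in knockout cells with siCTRL and 69.6, 41.5 and 64.9 CPM with siFEM1B, against a fall from a mean of 122 to 59.8 CPM in control cells. The log2 change of −0.31 in knockout cells was itself not called (adjusted p = 0.0929, edgeR), and the groups overlapped. The difference of 0.72 ± 0.20 (adjusted p = 0.0387) was not called without any 1 of 9 libraries, with adjusted p up to 0.137, nor by DESeq2 (0.116) or with the median of each chromosome removed (0.0609). The 3 libraries that could be left out without losing the Atf5 call were siFEM1B replicate 1 of control cells, siCTRL replicate 2 of knockout cells and siFEM1B replicate 2 of knockout cells. Vldlr was at 342, 341 and 339.6 CPM in knockout cells with siCTRL and 292, 288 and 288 CPM with siFEM1B, against 193, 183 and 202 and 213, 198 and 184 CPM in control cells. Its replicates in knockout cells lay within a few CPM of each other, and the difference was −0.28 ± 0.08 (adjusted p = 0.0351). The Vldlr call was lost without any 1 of 9 libraries, with adjusted p up to 0.0939, and held without siFEM1B replicate 3 of control cells, siCTRL replicate 3 of control cells or siFEM1B replicate 2 of knockout cells. The other 30 genes were not called different, which does not show that the lines responded alike: Shmt2 and Nupr1, for example, had differences of 0.41 ± 0.14 and −0.41 ± 0.14 (adjusted p = 0.0752 and 0.0783).

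The number of genes called different depended on single libraries. Without siFEM1B replicate 2 of knockout cells, 12 genes were called higher and 4 lower, and without siFEM1B replicate 1 of control cells 6 were called higher. Without any 1 of 9 other libraries, 1 was called higher, and without siCTRL replicate 3 of knockout cells 0 were called lower. The 34 genes varied together among the siFEM1B replicates. Over the 32 genes whose log2 CPM averaged 4 or more, the median coefficient of variation was 13.4% in control cells with siFEM1B and 15.0% in knockout cells with siFEM1B. It was 6.0% and 5.21% over 8776 genes at that level in the same groups. In the siCTRL groups the 32 genes were at 4.93% and 5.89%, against 4.84% and 4.29%.

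Relative to the siCTRL mean of their line, the median of the 34 genes, on the log2(CPM + 0.5) scale, was −0.20, −0.42 and −0.53 in siFEM1B replicates 1, 2 and 3 of control cells. Replicate 1 held the highest of the 3 values for 25 of the 34 genes (34.61% of all genes tested) and replicate 3 the lowest for 21 (37.55%). In knockout cells the medians were −0.09, −0.49 and −0.15, and replicate 2 held the lowest value for 27 of the 34 genes (37.47% of all genes tested). The medians over all genes stayed between −0.0049 and 0.0209 in these 6 libraries. The libraries whose genes had fallen least were also those with the least Fem1b left, at 43.0 CPM in replicate 1 of control cells and 46.2 and 46.4 CPM in replicates 1 and 3 of knockout cells. Libraries with more Fem1b left, such as replicate 2 of knockout cells at 54.5 CPM, had lower medians. Replicates 2 and 3 of control cells, at 57.95 and 54.2 CPM, were in the reverse order. The part of the remaining Fem1b in this spread was not tested.

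**Figure D4:**
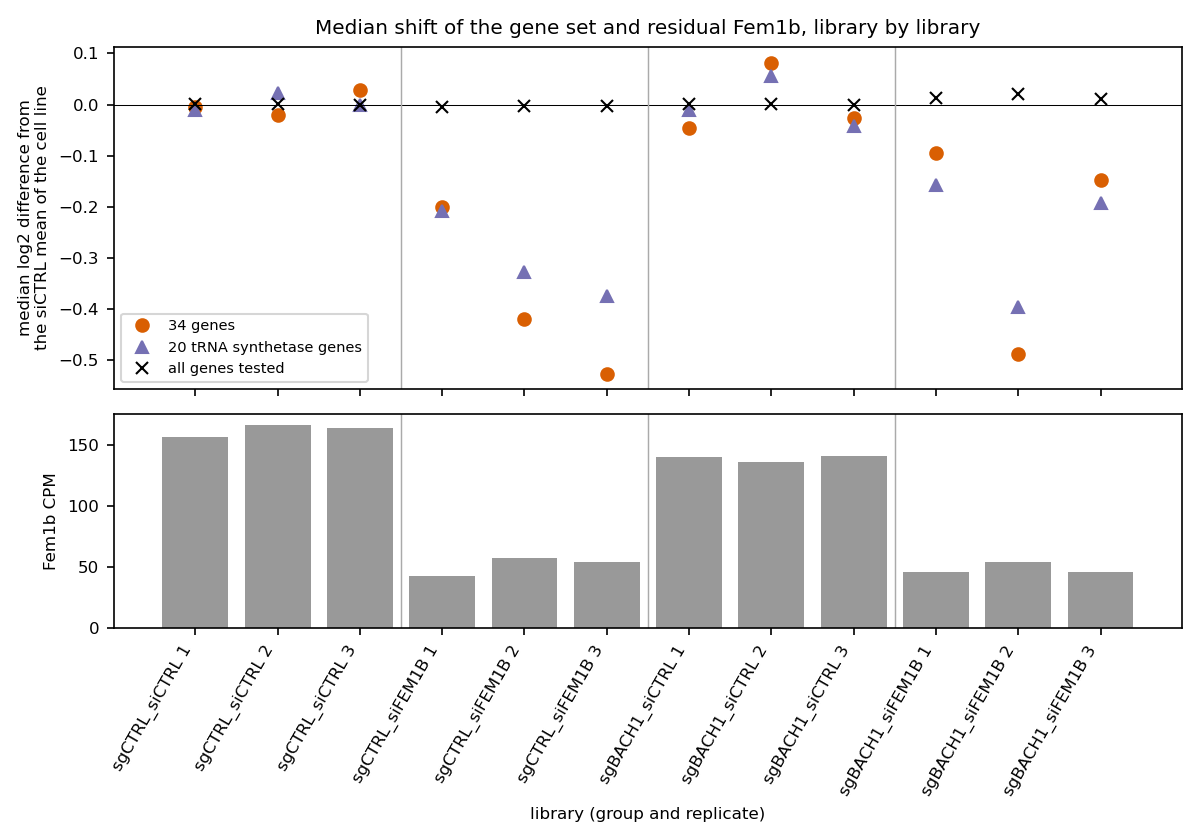
Median log2(CPM + 0.5) of the 34 genes in each library relative to the siCTRL mean of its line, beside the level of Fem1b in that library. The siFEM1B replicates spread from −0.20 to −0.53 in control cells and from −0.09 to −0.49 in knockout cells.

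The cell lines were then compared under each siRNA. Markers of cell type also differed between them. With siCTRL, the 7 fibroblast markers, of which 3 were tested, summed to between 23.2 and 24.98 CPM in control cells and 8.58 and 10.7 CPM in knockout cells, nearly all of it Col1a1, while Thy1 and Dcn were at or near 0. With siFEM1B the sums were 18.3 to 21.4 and 9.55 to 11.2 CPM. The summed epithelial markers were at 8979 to 9382 and 7082 to 7999 CPM with siCTRL and at 8576 to 9252 and 7815 to 7959 CPM with siFEM1B. Among them, Krt7 had a mean of 1733 CPM in control and 446 CPM in knockout cells with siCTRL, and Cdh1 322 and 645 CPM. The part of these differences in the results between the lines was not tested. These comparisons use the same libraries as the siRNA comparisons above, so that a gene's values in the 2 kinds of comparison are not independent. With siCTRL, 11 of the 34 genes were higher and 10 lower in knockout cells, where 50.5% of all genes tested were called (24.2% higher and 26.3% lower). The median was 0.03, against −0.02 over all genes, and the groups did not overlap for 26 of the 34 genes (60.3% of all genes). With siFEM1B, 15 were higher and 5 lower, where 54.6% of all genes were called (28.2% higher and 26.4% lower). The median was 0.18, against 0.01, and the groups did not overlap for 14 (57.0% of all genes). Both comparisons had 9 genes higher and 4 lower in common, and 29 of the 34 genes (85.3%) had the same sign in both, against 79.0% of all genes tested.

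Vldlr had the smallest p among the genes higher in knockout cells, with log2 changes of 0.82 ± 0.05 (adjusted p = 1.46e-10) with siCTRL and 0.54 ± 0.05 (adjusted p = 7.27e-08) with siFEM1B. Pck2 was at 195, 200.4 and 197 CPM in the control line and 271, 299.6 and 261 CPM in the knockout line with siCTRL, and at 151, 131 and 122 and 269, 197 and 262 CPM with siFEM1B. Its log2 fold changes were 0.49 ± 0.09 (adjusted p = 0.000148) and 0.85 ± 0.09 (adjusted p = 2.22e-07). Mthfd1l was higher under both siRNAs, by 0.42 ± 0.06 (adjusted p = 1.63e-05) and 0.35 ± 0.06 (adjusted p = 0.000119). Shmt1 was higher by 0.70 ± 0.12 (adjusted p = 4.2e-05) with siFEM1B. With siCTRL its log2 change of 0.33 ± 0.10 (adjusted p = 0.0106) was not called without siCTRL replicate 2 of control cells or replicate 3 of knockout cells, with adjusted p up to 0.0752. Shmt2 was called with siFEM1B, at 0.60 ± 0.10 (adjusted p = 2.85e-05), and not with siCTRL, at 0.19 ± 0.10 (adjusted p = 0.0951). Aldh1l2 and Nupr1 were called with siCTRL, at 0.52 ± 0.07 (adjusted p = 2.01e-06) and 0.46 ± 0.10 (adjusted p = 0.000628), and not with siFEM1B, at 0.11 ± 0.07 (adjusted p = 0.211) and 0.05 ± 0.10 (adjusted p = 0.693).

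Slc7a3, a cationic amino acid transporter of low level, had 18, 9 and 12 counts in control cells with siCTRL and 23, 24 and 36 in knockout cells. With siFEM1B it had 5, 9 and 14 and 47, 35 and 30 counts. The groups did not overlap in CPM under either siRNA, with log2 changes of 1.14 ± 0.36 (adjusted p = 0.0126) and 2.11 ± 0.37 (adjusted p = 6.9e-05). The first was not called without siCTRL replicate 2 of control cells or replicate 3 of knockout cells, with adjusted p up to 0.0673.

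Of the 10 genes lower in knockout cells with siCTRL, 4 were regulators, 2 were sestrins and 2 were transporters. Cebpb was at 262, 234 and 171 CPM in the control line and 119, 144 and 109 CPM in the knockout line with siCTRL, with log2 changes of −0.84 ± 0.19 (adjusted p = 0.000816) and, with siFEM1B, −0.66 ± 0.19 (adjusted p = 0.006). Control-cell libraries of Cebpb ranged widely, and the groups overlapped with siFEM1B. Sesn3 was at 16.1, 17.1 and 15.3 CPM in the control line and 9.05, 11.2 and 7.53 CPM in the knockout line with siCTRL, and the log2 fold changes were −0.81 ± 0.13 (adjusted p = 2.04e-05) and −0.84 ± 0.12 (adjusted p = 1.15e-05). Slc38a2, a glutamine and alanine transporter, was at 593, 625 and 668 and 462, 435 and 452 CPM with siCTRL, and was lower by 0.48 ± 0.06 (adjusted p = 1.45e-06) and 0.43 ± 0.06 (adjusted p = 5.2e-06). Sesn2 was lower with siFEM1B, at −0.54 ± 0.12 (adjusted p = 0.000772), and at −0.35 ± 0.12 (adjusted p = 0.0192) with siCTRL. The latter call was lost without siCTRL replicate 3 of control cells or replicate 1 of knockout cells, with adjusted p up to 0.126. Ddit3 was lower with siFEM1B, at −0.55 ± 0.13 (adjusted p = 0.00104), where it was at 51.0, 59.9 and 46.8 CPM in knockout cells and 63.7, 69.3 and 99.0 CPM in control cells. Atf5 and Gpt2 were lower with siCTRL, at −0.75 ± 0.14 (adjusted p = 0.000162) and −0.43 ± 0.12 (adjusted p = 0.00683), and not called with siFEM1B, at −0.03 ± 0.15 and −0.11 ± 0.13 (adjusted p = 0.879 and 0.459).

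Atf4 was not called between the lines, at 0.02 ± 0.09 with siCTRL and 0.17 ± 0.09 with siFEM1B (adjusted p = 0.885 and 0.11). Phgdh was called in opposite directions, −0.24 ± 0.08 (adjusted p = 0.0141) with siCTRL and 0.29 ± 0.08 (adjusted p = 0.00419) with siFEM1B. The siCTRL call of Phgdh was lost without siCTRL replicate 1 of control cells or replicates 1 or 3 of knockout cells, with adjusted p up to 0.0665. With the median of its chromosome removed, Phgdh was at −0.10 ± 0.08 with siCTRL (adjusted p = 0.312), no longer called, and at 0.42 ± 0.08 with siFEM1B (adjusted p = 0.000201). With siFEM1B, the lowest knockout library of Phgdh, at 165 CPM, lay below the highest control library, at 172.5 CPM. All 3 serine synthesis genes were called higher in knockout cells with siFEM1B, Psat1 by 0.48 ± 0.10 (adjusted p = 0.000341) and Psph by 0.35 ± 0.10 (adjusted p = 0.00697). The groups overlapped for all 3 genes, and the Psph call was lost without siFEM1B replicate 3 of knockout cells (adjusted p = 0.0525).

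Chromosomes differed in this comparison. Genes of chromosome 19 were higher in knockout cells as a whole, with a median log2 fold change of 0.44 over 472 genes with siCTRL and 0.44 with siFEM1B, and Psat1, Aldh18a1 and Vldlr lie there. With the median of each chromosome removed, Psat1 went from 0.42 ± 0.10 (adjusted p = 0.00104) to −0.02 ± 0.10 (adjusted p = 0.888) with siCTRL. Aldh18a1 went from 0.37 ± 0.12 (adjusted p = 0.0134) to −0.07 ± 0.12 (adjusted p = 0.677), and its call was also lost without siCTRL replicate 1 of control cells or replicate 2 of knockout cells, with adjusted p up to 0.0568. Vldlr was still higher with siCTRL, at 0.38 ± 0.05 (adjusted p = 9.78e-06), but not with siFEM1B, at 0.10 ± 0.05 (adjusted p = 0.134). With siFEM1B, Psat1 and Aldh18a1 also lost their calls, at 0.03 ± 0.10 (adjusted p = 0.799) and 0.27 ± 0.12 (adjusted p = 0.0748), the latter from 0.71 ± 0.12 (adjusted p = 5.95e-05). Pck2, on chromosome 14 with a median of 0.25, went to 0.24 ± 0.09 (adjusted p = 0.0405) with siCTRL and 0.60 ± 0.09 (adjusted p = 2.27e-05) with siFEM1B. Sesn3, on chromosome 9 with a median of 0.27, went further down, to −1.08 ± 0.13 (adjusted p = 6.14e-07). With medians removed, 9 genes were higher and 7 lower with siCTRL, all of them among the 11 and 10 above. With siFEM1B, 13 were higher and 6 lower, of which 10 and 5 were among the 15 and 5.

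**Figure D5:**
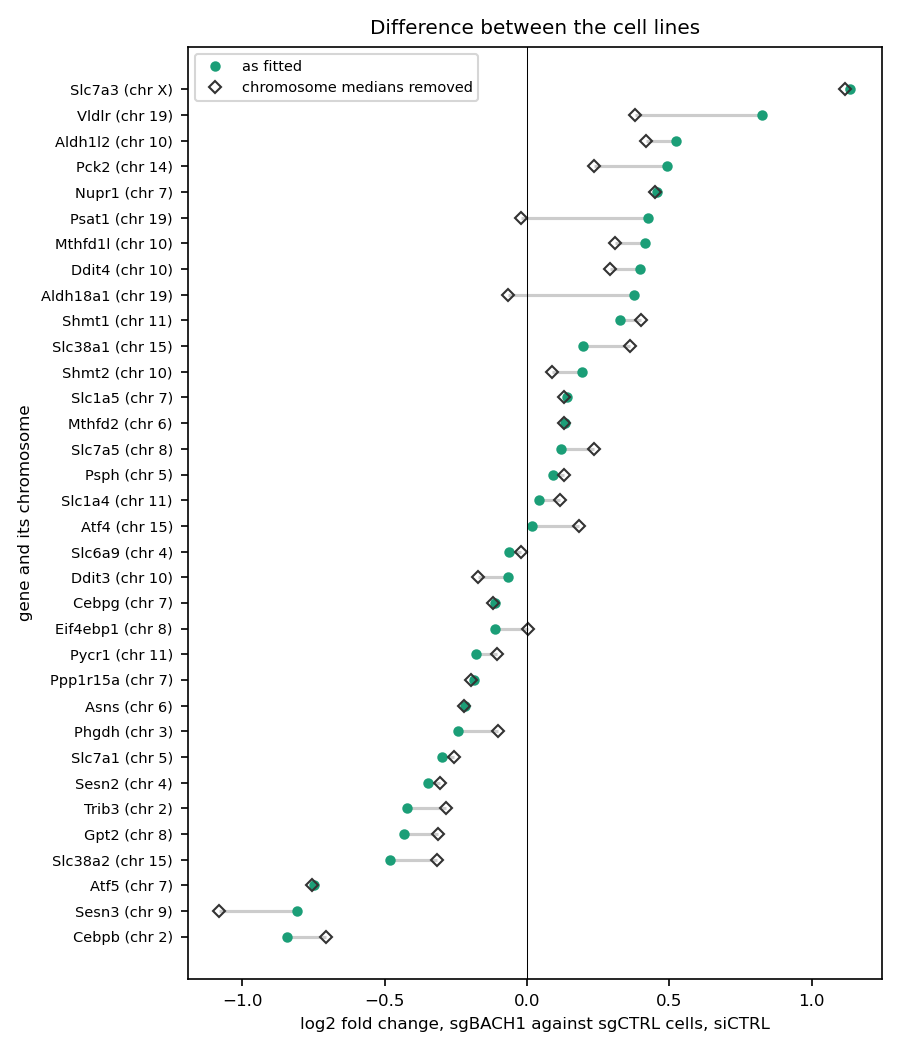
Log2 difference between knockout and control lines under siCTRL for the 34 genes, as fitted (filled circles) and with the median of each chromosome removed (open diamonds). The chromosome 19 genes Psat1 and Aldh18a1 move to near 0, Vldlr moves from 0.82 to 0.38, and Sesn3 moves away from 0.

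The calls between the lines that held under every alternative numbered 11 of 21 with siCTRL and 12 of 20 with siFEM1B. With siCTRL they were Atf5, Mthfd1l, Aldh1l2, Pck2, Gpt2, Sesn3, Ddit4, Nupr1, Cebpb, Vldlr and Slc38a2. With siFEM1B they were Ddit3, Phgdh, Shmt1, Shmt2, Mthfd1l, Pck2, Sesn2, Sesn3, Cebpb, Slc7a3, Slc1a5 and Slc38a2. Ddit4, at 0.40 ± 0.07 with siCTRL (adjusted p = 9.25e-05), was at 0.21 ± 0.07 with siFEM1B (adjusted p = 0.0142), a call lost without siFEM1B replicate 2 of either line, with adjusted p up to 0.0914, and with chromosome medians removed, at 0.11 ± 0.07 (adjusted p = 0.199). Slc1a5 was higher with siFEM1B, at 0.41 ± 0.11 (adjusted p = 0.00426). The remaining calls, those of Trib3, Ppp1r15a, Slc7a1 and Slc38a1 with siCTRL and of Mthfd2, Slc1a4 and Slc38a1 with siFEM1B, had log2 fold changes between −0.42 ± 0.15 (Trib3) and 0.46 ± 0.14 (Slc1a4), and each was lost with at least 1 library left out. The highest adjusted p with a library left out was 0.112 for Trib3, 0.125 for Ppp1r15a, 0.126 for Slc7a1 and 0.121 for Slc38a1 with siCTRL, and 0.247 for Mthfd2, 0.0841 for Slc1a4 and 0.281 for Slc38a1 with siFEM1B. With chromosome medians removed, the calls of Trib3, Slc7a1 and Mthfd2 were also lost, at adjusted p = 0.142, 0.0934 and 0.191. Asns, Cebpg, Eif4ebp1, Pycr1, Slc6a9 and Slc7a5 were not called between the lines under either siRNA. Of the 9 genes with the antioxidant-type core in their window, 6 were lower and 0 higher in knockout cells with siCTRL (26.3% of all genes tested were lower and 24.2% higher), and 3 lower and 2 higher with siFEM1B (26.4% and 28.2%). Of the 6 calls with siCTRL, those of Cebpb and Slc38a2 held under every alternative, and those of Phgdh, Sesn2, Slc7a1 and Ppp1r15a did not. The counts over all genes that hold this core were not made. Of the 19 without it, 4 were lower and 8 higher, and then 2 lower and 10 higher.

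Several of the 34 genes share exon sequence with a gene on the opposite strand in GENCODE M21. The library kit keeps strand, but the strand setting of the counting is not given in the sources used here, so the values of these genes are uncertain. The share of exon bases was 27.8% for Slc6a9 with Ccdc24, 20.7% for Cebpb with Tmem189, 14.1% for Aldh1l2 with D10Wsu102e and 10.4% for Psph with Cct6a. It was 4.74% for Shmt1 with Smcr8, 4.11% for Atf5 with Nup62 and Il4i1 and 3.97% for Ddit3 with Mars.

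Other genes of the same pathways were counted from lists that, like the 34 genes, were drawn up with earlier results of these data known. Over all genes tested, siFEM1B gave 22.9% lower and 22.1% higher in control cells and 19.8% lower and 21.9% higher in knockout cells. With siFEM1B, 17 of 20 cytosolic tRNA synthetase genes (85.0%) were called lower and 0 higher in control cells, and 14 lower (70.0%) and 0 higher in knockout cells, with median log2 fold changes of −0.29 and −0.20. Lars, the leucyl-tRNA synthetase, was at 296, 319.6 and 316 CPM with siCTRL and 149, 131 and 100.1 CPM with siFEM1B in control cells, a log2 change of −1.29 ± 0.11 (adjusted p = 2.79e-08), and at −0.90 ± 0.11 (adjusted p = 3.29e-06) in knockout cells. The synthetases moved with the 34 genes from library to library: their medians were −0.21, −0.33 and −0.37 in siFEM1B replicates 1 to 3 of control cells and −0.16, −0.40 and −0.19 in those of knockout cells. Of the other folate, glycine and methionine cycle genes, 22 of 25 were tested, with 15 lower (68.2%) and 1 higher in control cells and 13 lower (59.1%) and 2 higher in knockout cells. Their medians were −0.36, −0.30 and −0.32 in siFEM1B replicates 1 to 3 of control cells. Replicate 1 was the lowest there, whereas the 34 genes had fallen least in it. In knockout cells the medians of this list were −0.23, −0.38 and −0.25, where replicate 2 was the lowest, as it was for the 34 genes. Among them the purine synthesis genes Gart and Atic fell by 0.71 ± 0.06 (adjusted p = 8.91e-09) and 0.67 ± 0.07 (adjusted p = 1.27e-07) and the cytosolic folate enzyme gene Mthfd1 by 0.58 ± 0.06 (adjusted p = 1.01e-07) in control cells.

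The other lists were less one-sided with siFEM1B. Of 20 further ATF4 targets, 9 were lower (45.0%) and 2 higher (10.0%) in control cells, and 8 lower (40%) and 5 higher (25%) in knockout cells, the last close to the 21.9% over all genes. Slc7a11, the cystine transporter subunit, was the largest fall among them, at −1.56 ± 0.20 (adjusted p = 2.94e-06) and −0.91 ± 0.19 (adjusted p = 0.000762). Of 14 tested amino acid transporters outside the 34 genes, out of 22 listed, 7 were lower (50%) and 1 higher in control cells, and 6 lower (42.9%) and 1 higher in knockout cells, Slc7a11 being on both lists. Of 17 genes of the eIF2 pathway (eIF2, its kinases and exchange factor, and 5 genes that act on or upstream of them, Gcn1, Nck1, Oma1, Ppp1r15b and Dele1), 6 were lower (35.3%) and 2 higher (11.8%) in control cells, and 5 lower (29.4%) and 2 higher (11.8%) in knockout cells. Eif2b5, an exchange factor subunit, fell by 0.28 ± 0.06 (adjusted p = 0.00036) and 0.34 ± 0.06 (adjusted p = 7.69e-05). Of 13 tested enzymes of proline, glutamine and asparagine metabolism, out of 17 listed, 3 were lower (23.1%) and 2 higher (15.4%) in control cells, and 1 lower (7.69%) and 2 higher (15.4%) in knockout cells. The first of these shares was close to that over all genes, and the others were below it.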

How the data were processed

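Poly(A) RNA of 12 libraries was sequenced with a stranded mRNA kit, per the labels' protocols. The authors deposited raw read counts for each gene symbol, as whole numbers. Per the submitters' processing notes, the build was mm10 and the tools were SAMtools 1.9, featureCounts 1.6.4, Subread and DESeq2 1.26.0. Their steps, the annotation used and the strand setting of the counting were not given in the sources used here. Counts were scaled with TMM factors (0.989 to 1.01), genes kept with filterByExpr at a minimum count of 10 (13281 of 24421), and 1 mean per group fitted to all 12 libraries (8 residual degrees of freedom) with the quasi-likelihood test of edgeR 4.0.16 in R 4.3.3. Tests were two-sided, with Benjamini-Hochberg adjustment over all genes and calls at an adjusted p under 0.05. Standard errors are approximate, from the size of the log2 change over the root of its F statistic. The code was tested on simulated data.

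Alternatives were DESeq2 1.42.0, its size factors, no filter on low counts, 10 counts in at least 3 columns, only the libraries compared, the replicate number as a block, each library left out and, between lines, chromosome medians removed. Positions are from RefSeq (GRCm38.p6) and exon overlaps from GENCODE M21 (GRCm38). No replicates held identical counts. The 34 genes and the lists were chosen with earlier results of these data known. All 34 genes are named; values in every library are given for those called without overlap, up to 5 rises and 5 falls per comparison, and for 10 fixed genes, and up to 3 genes with the smallest p of each other list. Some values beyond this rule are given where a statement needed them. Members of other lists with low counts were left out. Part of the genotype label is not reported here.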

Additional observations from a re-analysis of the deposited data

Results flagged for a closer look

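The siFEM1B effect differed between knockout and control cells, by the test of the difference itself, in 4 of the 34 genes. The knockout-line effect minus the control-line effect was 0.72 on the log2 scale in Atf5, 0.53 in Phgdh, −0.42 in Aldh1l2 and −0.28 in Vldlr. In Phgdh the fall seen in control cells was smaller in knockout cells. In Atf5 the change was smaller too, and in knockout cells it was not called (−0.31, adjusted p = 0.0929, edgeR). In Aldh1l2 the fall was larger in knockout cells. Vldlr fell by 0.24 ± 0.05 (adjusted p = 0.00147, edgeR) in knockout cells and was at 0.04 ± 0.05 (adjusted p = 0.555) in control cells. The Phgdh difference held under every alternative, and the others did not, as given above. Groups of 3 libraries are too small for the test of single outlying samples.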

How the results depend on the processing

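For siFEM1B in each line, the counts of genes called lower stayed within 20 to 23 in control cells and 12 to 17 in knockout cells with each library left out, and the counts higher within 2 to 3 and 2 to 4. Between the lines, the ranges were 8 to 12 higher and 5 to 12 lower with siCTRL, and 11 to 18 higher and 5 to 7 lower with siFEM1B. For the difference between the siRNA effects the ranges were 1 to 12 higher and 0 to 4 lower. Without a filter on low counts that test called 12 higher and 4 lower; DESeq2 called 1 higher, and removing chromosome medians left 1 higher. Over all genes it called 462 higher and 345 lower, against 369 and 441 with DESeq2's size factors, 515 and 614 by DESeq2, 369 and 467 with chromosome medians removed, and 736 and 657 without a filter. The causes were not tested. With chromosome medians removed and siCTRL, the log2 changes were −0.019 ± 0.096 for Psat1 and −0.068 ± 0.120 for Aldh18a1. The sign turned, but both values were smaller than their standard errors, so that no change of direction is shown. No alternative moved the median of all genes by over 0.1 on the log2 scale.

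Same-numbered libraries deviated together with correlations of −0.115 to 0.0789, so that the numbers are not taken to pair the samples. With the replicate number as a block, siFEM1B gave 22 genes lower and 2 higher in control cells and 14 and 2 in knockout cells. Between the lines the block gave 11 higher and 10 lower with siCTRL and 14 and 5 with siFEM1B. For the difference between the siRNA effects the block gave 1 higher and 1 lower. With 3 libraries a group and a single line of each genotype, p-values measure the spread between these libraries. Depth limits mainly Slc7a3, at 5 to 47 counts a library.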

Other observations

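Among genes outside the 34, enzymes of glycine, cysteine and proline breakdown or synthesis stood higher in knockout cells. Gldc, the glycine decarboxylase of the mitochondrial glycine cleavage system, was at 6.23, 7.21 and 7.87 CPM in the control line and 22.5, 23.1 and 21.8 CPM in the knockout line with siCTRL. Its log2 fold change was 1.66 ± 0.11 (adjusted p = 1.64e-10, edgeR), and 2.04 ± 0.11 (adjusted p = 1.37e-11) with siFEM1B. Cth, which makes cysteine from cystathionine, was at 6.14, 8.71 and 5.97 and 20.8, 22.2 and 19.2 CPM with siCTRL, a log2 change of 1.58 ± 0.15 (adjusted p = 4.03e-08). Prodh, the proline dehydrogenase, was low in control cells, at 0.546, 0.377 and 0.853 CPM, and at 3.58, 3.44 and 5.08 CPM in knockout cells (2.77 ± 0.30, adjusted p = 1.88e-07). The groups did not overlap for these 3 genes. Values with chromosome medians removed are not given for them, so that a shift of a whole chromosome, as described above, is not taken out.

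Of the 22 tested genes on the folate, glycine and methionine cycle list, the difference between the siRNA effects was called for 2 (9.09%), where 6.08% of all genes tested were called. Mat2a, which makes the methyl donor S-adenosylmethionine, had a difference of 0.79 ± 0.18 (adjusted p = 0.0161) and Ahcy, which removes its product after methyl transfer, of 0.46 ± 0.07 (adjusted p = 0.00137). Mean Mat2a was lower with siFEM1B in control cells (273 to 119 CPM) and in knockout cells (233 to 176 CPM). Its knockout siFEM1B libraries were at 197, 121.5 and 208 CPM. Mean Ahcy was lower with siFEM1B in control cells (156 to 133 CPM) and higher in knockout cells (131 to 154 CPM). Values with single libraries left out are not given for these genes. Of the 17 genes of the eIF2 pathway list, 10 were lower (58.8%) and 0 higher in knockout cells with siCTRL, where 26.3% of all genes were lower and 24.2% higher, and 9 were lower (52.9%) and 2 higher (11.8%) with siFEM1B, against 26.4% and 28.2%. Eif2ak2, the kinase PKR, was at −0.45 ± 0.08 (adjusted p = 6.22e-05) and −0.68 ± 0.08 (adjusted p = 4.09e-07).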
